A study of Mus musculus with 1824 samples.

Results

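Pou5f1, Nanog, Utf1, Fgf5, Slc7a3, Pim2, L1td1 and Otx2 are 8 genes of the primed epiblast, the tissue of the mouse embryo that is still pluripotent when gastrulation begins. They were found by matching the gene identifiers of the count table to these symbols, which gave 8 of its 55487 genes. Single-cell RNA from mouse chimaeras at embryonic days E7.5 and E8.5 was sequenced with Smart-seq2, a full-length method for sorted cells that carries no molecular identifiers. The chimaeras were made by placing Tet triple-knockout (TKO) embryonic stem cells, which lack the DNA demethylases TET1, TET2 and TET3 and carry a CAG-driven H2B-tdTomato-IRES-Puromycin construct, into wild-type C57BL/6J blastocysts that were carried by CD1 recipients. The labels give CD1 as the strain of every sample. The knockout cells derive from 1 cultured stem cell line. The tdTomato mark and antibodies to KDR and CD41 were used in the sorts. Some of the wells were treated with a GpC methylase that marks open chromatin. In the paper's counts, cells profiled for RNA together with methylation and open chromatin equal in number the E8.5 wells here. Cells profiled for RNA alone equal in number the E7.5 wells. The stages may thus differ in assay too, and stage and assay could then not be told apart. The labels of single cells name neither the genotype nor the sort gate, so knockout and host cells could not be compared and every share below is a share of sorted wells, not of the embryo.

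The table held 1824 wells on 19 plates of 96 wells. At E7.5, 4 plates each held 1 named embryo (embryos 1, 2, 4 and 5), 1 plate was titled chimera plate 3, and 6 plates carry a sequencing lane in their titles and are called lane plates 1 to 6. The titles of the lane plates name no genotype or chimaera. At E8.5 there were 8 plates, and none names an animal. Cells with at least 100000 reads were kept, which left 1649 cells, 90.5% of the wells labelled E7.5 and 90.2% of those labelled E8.5. Kept cells had a median of 735486 reads for E7.5 and 569386 for E8.5, and plate medians ran from 224956 to 1699478.5 reads. A gene was called detected in a cell when at least 1 read remained after each cell had been thinned to 100000 reads. Levels are CPM, the reads of a gene in the pooled cells for each 1000000 reads of those cells.

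The epiblast passes from a naive state before implantation to a primed state after it, in which lineage regulators can be switched on. As cells leave it, those that enter the primitive streak turn on T (Brachyury) and Mixl1, while those that become neural plate turn on Sox1, and the pluripotency network is shut down. Pou5f1 (Oct4) and Nanog are core transcription factors of that network, Utf1 is a chromatin-bound protein of pluripotent cells, Otx2 is a homeobox factor of the primed epiblast and later of the anterior head, Fgf5 is a secreted growth factor and the classical mark of the primed state, Slc7a3 is a transporter of cationic amino acids, Pim2 is a serine/threonine kinase that favours survival, and L1td1 is an RNA-binding protein derived from a transposable element.

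In GRCm38 with the GENCODE M21 annotation, Pou5f1 lies at chr17:35506018-35510772, Nanog at chr6:122707489-122714633, Utf1 at chr7:139943789-139945112, Fgf5 at chr5:98254184-98277030, Slc7a3 at chrX:101079210-101086020, Pim2 at chrX:7878262-7883432, L1td1 at chr4:98726734-98738480 and Otx2 at chr14:48657677-48673819. Slc7a3 and Otx2 are on the minus strand and the other 6 on the plus strand, and all 8 are protein coding. Pou5f1 overlaps the antisense gene Gm19553, and Otx2 overlaps the opposite-strand Otx2os1 and the same-strand Gm49154. Nanog has the named processed pseudogenes Nanog-ps1 and Nanog-ps2. How the counting treated strand and reads with several matches is not given in the sources used here, so the values of these 3 genes may include reads from, or have lost reads to, those neighbours and copies.

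The upstream sequences of 4 members are shown as examples that differ in the motifs they hold. A link between these motifs and the levels of the genes was not tested. They come from RefSeq on GRCm38.p6, for which 7 of the 8 members had an entry (none for Slc7a3). Each is read 5′ to 3′ on the gene's own strand and ends at the base before the gene start. Capitals mark the octamer ATGCAAAT, its core ATGCAAA, the Sox motif ACAATG and the GC box GGGCGG, all searched on both strands.
Nanog chr6:122707239-122707488 (+ strand): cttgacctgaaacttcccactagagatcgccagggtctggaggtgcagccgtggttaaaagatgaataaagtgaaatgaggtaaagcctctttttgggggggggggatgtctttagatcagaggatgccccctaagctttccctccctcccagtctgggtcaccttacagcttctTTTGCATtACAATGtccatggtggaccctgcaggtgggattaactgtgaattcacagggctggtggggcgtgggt
Utf1 chr7:139943606-139943788 (+ strand): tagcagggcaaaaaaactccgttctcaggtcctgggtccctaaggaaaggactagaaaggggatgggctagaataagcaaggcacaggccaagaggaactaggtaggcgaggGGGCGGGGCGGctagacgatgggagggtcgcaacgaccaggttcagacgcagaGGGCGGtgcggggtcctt
Pou5f1 chr17:35505782-35506017 (+ strand): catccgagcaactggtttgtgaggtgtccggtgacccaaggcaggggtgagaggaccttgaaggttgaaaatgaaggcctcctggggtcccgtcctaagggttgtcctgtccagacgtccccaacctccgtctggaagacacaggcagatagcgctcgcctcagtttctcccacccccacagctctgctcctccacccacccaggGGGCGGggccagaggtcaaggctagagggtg
Pim2 chrX:7878056-7878261 (+ strand): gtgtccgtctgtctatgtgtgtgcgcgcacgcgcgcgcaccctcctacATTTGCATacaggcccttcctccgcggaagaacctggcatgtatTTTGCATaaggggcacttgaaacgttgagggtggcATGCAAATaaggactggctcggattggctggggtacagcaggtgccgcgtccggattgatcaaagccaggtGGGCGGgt
In Nanog, the octamer core on the reverse strand and ACAATG stand 1 base apart. ATGCAAA was found in 4.12% and ACAATG in 10.7% of 32851 RefSeq mouse promoters of 250 bases. Utf1 held 4 GC boxes in its 250 bases, of which the pair shown joined overlap by 1 base and the last lies beyond the gene start and is not shown. Pou5f1 held 1, and the GC box was present in 32.7% of promoters. Pim2 held 2 full octamers, found in 1.60% of promoters, a further core and 1 GC box. L1td1 held none of the motifs searched, which also included ACAAAG (16.5% of promoters) and TATAAA (12.4%). The 250-base windows held 24 CpG sites in Fgf5, 22 in Pim2, 14 in Utf1, 11 in L1td1, 8 in Pou5f1 and 3 in Nanog, against a median of 6 over all promoters. A match or its absence describes these letters only.

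The first comparison asked how far the levels of the 8 genes differed between E7.5 and E8.5. All 8 were lower at E8.5, with log2 ratios of pooled CPM from -2.87 to -5.82 after adding 1 CPM to both sides. Of the 9887 genes that reached 10 CPM at E7.5 or at E8.5, 8.21% had a ratio at or below -1 and 7.02% at or above 1. The median ratio was -4.17 over the members and 0.08 over all genes tested. All 8 members reached 10 CPM only at E7.5, and at E8.5 they lay between 0.385 and 8.75 CPM. Genes that pass in this way tend to have low ratios. The shares and the median over all genes, here and below, are thus not a like-for-like background for the members. Markers of other cell types moved both ways. At or above 1 were 7 of 7 blood genes (median log2 ratio 2.24), 8 of 8 visceral endoderm genes (median 2.80) and 3 of 7 haematoendothelial genes. At or below -1 were 8 of 8 primitive streak genes and 5 of 6 extraembryonic ectoderm genes (median -2.37) that reached 10 CPM. So were 3 of 5 definitive endoderm, 2 of 5 caudal epiblast and 1 of 2 germ cell genes. Of these 5 lists, 0 genes that reached 10 CPM were at or above 1. Genes recur between lists, and Eomes counts in both the streak and the extraembryonic ectoderm list. The 2 caudal genes, T and Fgf8, are also streak genes, and the germ cell gene, Tfap2c, is also in the extraembryonic ectoderm list. The other caudal genes that reached 10 CPM were Nkx1-2 (-0.07), Cdx2 (0.09) and Cdx1 (0.65). Cells in the blood gate alone, defined below, made up 8.47% of E7.5 cells and 24.8% of E8.5 cells. Their part in the lower pooled levels of the members was not tested. No test was made between the stages, because no E8.5 animal is named and E8.5 counts as 1 sample, so the spread over plates is given instead. In pooled values, fewer expressing cells and less RNA per cell cannot be told apart. The possible overlap of stage and assay given above applies to this comparison as well.

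For the transcription factors, Pou5f1 stood at 363.5, 452.02, 86.4 and 120.5 CPM in embryos 1, 2, 4 and 5 and at 514.2 CPM on chimera plate 3. On lane plates 1 to 6 its level was 0.628, 2.14, 12.8, 84.5, 460.7 and 436.8 CPM. On E8.5 plates 1 to 8 it was 0.0190, 2.77, 0.302, 0.151, 0, 0, 3.77 and 11.4 CPM. Embryos 1 and 2, chimera plate 3 and lane plates 5 and 6 were thus high, lane plates 1 and 2 were as low as the E8.5 plates, and the stages overlapped. Pooled, Pou5f1 went from 197.4 CPM (95% Poisson interval 196.4 to 198.3) to 2.51 CPM (2.37 to 2.65), a log2 ratio of -5.82, the lowest of the 8. Such intervals, and those on shares of cells, hold the error of counting and no more, because reads copied by amplification are not separate molecules.

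Nanog was low throughout, at 57.9, 52.2, 15.01 and 25.4 CPM in embryos 1, 2, 4 and 5 and at 37.8 CPM on chimera plate 3. The lane plates gave 0.134, 0.107, 4.41, 14.8, 27.5 and 37.2 CPM. At E8.5, plate 7 had 3.02 CPM and the other 7 plates at most 0.101 CPM. Like Pou5f1, Nanog was lowest on lane plates 1 and 2 and highest on lane plates 5 and 6 among the lane plates, and its pooled level went from 22.2 to 0.385 CPM (log2 ratio -4.06).

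Utf1 was at 75.5, 155.5, 186.1 and 131.8 CPM in embryos 1, 2, 4 and 5, at 201.9 CPM on chimera plate 3, at 0.126, 0.0893, 0.275 and 13.2 CPM on lane plates 1 to 4, and at 67.5 and 66.6 CPM on lane plates 5 and 6. Unlike Pou5f1, it was higher in embryo 4 than in embryos 1 and 2. At E8.5 it reached 2.14 CPM on plate 7 and at most 0.675 CPM elsewhere. The pooled level went from 74.1 to 0.537 CPM (log2 ratio -5.61). Otx2 was at 120.6, 167.03, 58.7 and 89.3 CPM in the 4 embryos, 174.6 CPM on chimera plate 3 and 9.33, 0.357, 9.43, 34.5, 87.6 and 66.4 CPM on the lane plates. At E8.5 it was at 29.7 CPM on plate 7, 12.2 CPM on plate 8 and 1.76 CPM on plate 3, with at most 0.252 CPM on the other 5 plates. Its pooled ratio was -3.43 (69.6 to 5.55 CPM).

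The growth factor Fgf5 was at 123.4, 153.4, 52.6 and 60.8 CPM in embryos 1, 2, 4 and 5, at 157.7 CPM on chimera plate 3, at 0 CPM on lane plates 1 and 2 and between 12.7 and 45.4 CPM on lane plates 3 to 6. No E8.5 plate exceeded 2.43 CPM, and the pooled level went from 59.9 to 0.535 CPM (log2 ratio -5.31). A plate count of 0 allows up to 0.0176 to 0.191 CPM, by plate. Fgf5 and Pou5f1 were both high on the same 3 plates named for embryos 1 and 2 and chimera plate 3. They parted on lane plates 5 and 6, where Pou5f1 was high as well and Fgf5 was at most 45.4 CPM.

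The transporter Slc7a3, the kinase Pim2 and the RNA-binding L1td1 had the highest levels of the 8 at E8.5 beside Otx2. Slc7a3 was at 171.6, 233.5, 25.5 and 34.9 CPM in the 4 embryos, 235.7 CPM on chimera plate 3 and between 1.68 and 125.99 CPM on the lane plates, and at E8.5 it lay between 0 and 11.1 CPM (pooled 85.2 to 5.54 CPM, log2 ratio -3.72). Pim2 was at 299.6, 453.9, 97.5 and 135.1 CPM in the embryos, 508.6 CPM on chimera plate 3 and between 3.14 and 332.1 CPM on the lane plates. It was the only member with reads on all 8 E8.5 plates, between 1.85 and 15.2 CPM (pooled 187.04 to 8.75 CPM, log2 ratio -4.27). L1td1 was at 107.3, 168.03, 169.3 and 107.8 CPM in the embryos, 80.9 CPM on chimera plate 3 and between 0 and 57.6 CPM on the lane plates. At E8.5 it was at 25.6 CPM on plate 1 and at most 5.93 CPM elsewhere (pooled 58.97 to 7.20 CPM, log2 ratio -2.87, the one nearest to 0 of the 8).

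**Figure D1:**
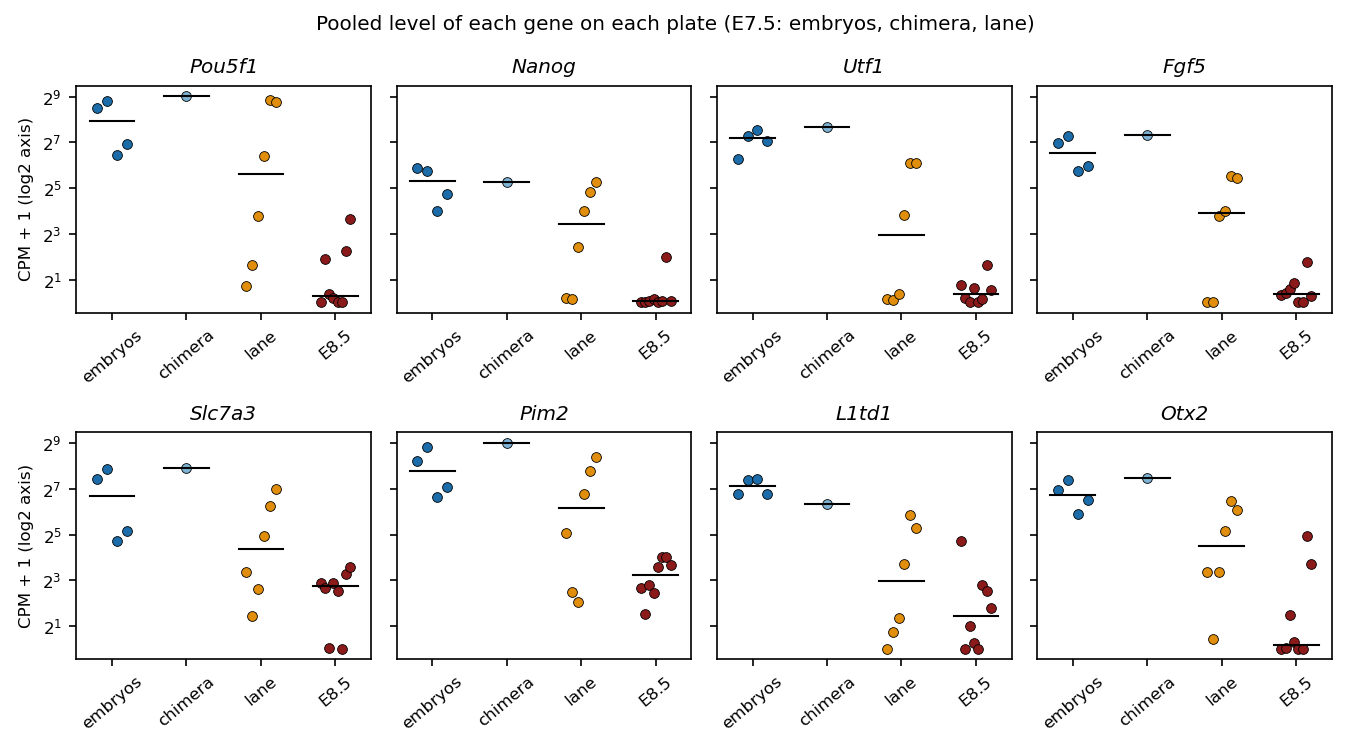
Pooled level of each member on each plate, as CPM + 1 on a log2 axis, with the E7.5 plates split into named embryos, the chimera plate and the lane plates, and the 8 E8.5 plates on the right. Each point is 1 plate. Lane plate 2 overlaps the E8.5 plates for every member and lane plate 1 for 7 of 8 (not Pim2, at 32.5 CPM), while the 4 embryos and the chimera plate lie above them.

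For none of the 8 did all E8.5 plates lie below all E7.5 plates, against 1.44% of the 9887 genes. Lane plates 1 to 3 held the low E7.5 values. With the 4 named embryos alone at E7.5, all 8 members lay wholly above E8.5, against 9.36% of genes, and with lane plates 1, 2 and 3 left out it was 7 of 8, against 3.45%. The choice of those 3 plates was made after their values were seen. Kdr, a receptor of haematoendothelial cells and one of the sort markers, was at 1276 and 600.5 CPM on lane plates 2 and 3, against 121.9 to 187.95 CPM in the embryos and chimera plate 3. On lane plate 1, 63 of the 93 kept cells passed the blood gate, against 0 on each plate of the embryos and on chimera plate 3. The part of the sort, or of these cell types, in the low levels of the members on lane plates 1 to 3 was not tested.

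Per kilobase of annotated exon, the order of levels at E7.5 was Pou5f1 (87.8 CPM per kb), Pim2 (66.9), Utf1 (60.4), Fgf5 (23.96), Slc7a3 (22.5), L1td1 (18.6), Otx2 (16.5) and Nanog (9.88). Neighbours from Fgf5 to Otx2 differed by less than the spread of either over plates. At E8.5 the order began with Pim2 (3.13 CPM per kb) and L1td1 (2.27) and ended with Nanog (0.172).

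Detection gave the same direction. Pou5f1 was detected in 53.3% of E7.5 cells (95% Clopper-Pearson interval 50.1 to 56.5) and in 3.03% at E8.5 (21 cells, 1.89 to 4.595). Nanog was detected in 29.8% and 0.577%, Utf1 in 31.5% and 1.44%, Fgf5 in 34.7% and 0.722%, and Otx2 in 38.3% and 3.32%. For Slc7a3 the shares were 29.3% and 7.36%, for Pim2 47.9% and 16.2%, and for L1td1 42.3% and 4.76%. Pim2 thus had the largest share of the 8 in E8.5 cells. Without thinning the shares were higher for all 8, most of all for Nanog, at 41.3% and 2.45%. Among cells with a member, the median level of Pou5f1 was 358.6 CPM (quartiles 92.8 to 731.8) at E7.5 and 21.3 CPM at E8.5, so the E8.5 cells that kept it held less. Otx2 was different, with a median of 153.9 CPM in its E7.5 cells and 151.6 CPM in its 23 E8.5 cells.

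Blood cells served as a comparison for shares near 0, although Pim2 is also a kinase of blood cells. At E8.5, 24.8% of cells passed only a blood gate (at least 4 of Hba-x, Hbb-bh1, Hbb-y, Klf1, Gata1, Alas2 and Hemgn), and Pou5f1 was detected in 0.581% of them, Slc7a3 in 6.98%, Pim2 in 5.23%, and L1td1 and Otx2 in 0, which allows a share of up to 1.74% (3 cells of the total). The Slc7a3 share over all E8.5 cells, 7.36%, is close to that in blood cells. At E7.5, the 81 cells of the blood gate alone gave 17.3% for Pou5f1, 29.6% for Pim2 and 3.70% for Fgf5, and their median depth was 952541 reads.

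The members also differed in which E7.5 cells held them outside the epiblast. A gate for extraembryonic ectoderm (at least 2 of Elf5, Esx1, Ascl2 and Wnt7b) took 10.6% of E7.5 cells and a gate for visceral endoderm (at least 4 of Ttr, Apoa1, Apoa4, Apom, Amn, Cubn, Afp and Rbp4) took 32. Utf1 and L1td1 were detected in 99.01% and 98.02% of the extraembryonic ectoderm cells, and Pim2 in 63.4%. In those cells Pou5f1, Fgf5 and Otx2 were each detected in 4.95%, and Nanog and Slc7a3 each in 6.93%. In the 77.6% of E7.5 cells outside all 3 gates the order was different, with Pou5f1 in 65.6%, Pim2 in 48.1%, Otx2 in 45.1%, Fgf5 in 40.97%, L1td1 in 37.3%, Nanog in 36.4%, Slc7a3 in 34.8% and Utf1 in 24.8%.

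Embryos 4 and 5 held 50 and 36 of the extraembryonic ectoderm cells. In embryo 4, Utf1 was at 297.7 CPM in these cells and 52.7 CPM in the cells outside the gates, while Pou5f1 was at 0.0300 and 294.2 CPM. In embryo 5, Utf1 was at 274.8 and 36.5 CPM and L1td1 at 174.7 and 62.6 CPM. Of the Utf1 reads of the whole embryo 4 plate, 89.3% were in this gate, and outside the gates embryo 4 lay below embryos 1 and 2 (72.2 and 152.5 CPM). Lane plates 5 and 6, with 5 and 6 such cells, gave 227.6 and 141.6 CPM of Utf1 in them.

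In the visceral endoderm gate, Otx2 was detected in 65.6% of cells, Fgf5 and L1td1 each in 62.5%, and Slc7a3 in 0 of 32, which allows up to 9.38%. The pooled levels there were 168.7 CPM for Otx2, 125.3 CPM for Fgf5 and 58.4 CPM for L1td1. Embryo 5 had 378.1 CPM of Otx2 in the gate against 81.2 CPM outside all gates, but embryo 4 had 116.4 and 141.6 CPM, so the 2 embryos with 13 such cells each went opposite ways. Fgf5 was likewise at 241.7 and 60.3 CPM in embryo 5 and at 116.5 and 120.4 CPM in embryo 4. At E8.5 the same gate alone took 29 cells, and L1td1 was at 80.99 CPM in them and detected in 58.6%.

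**Figure D2:**
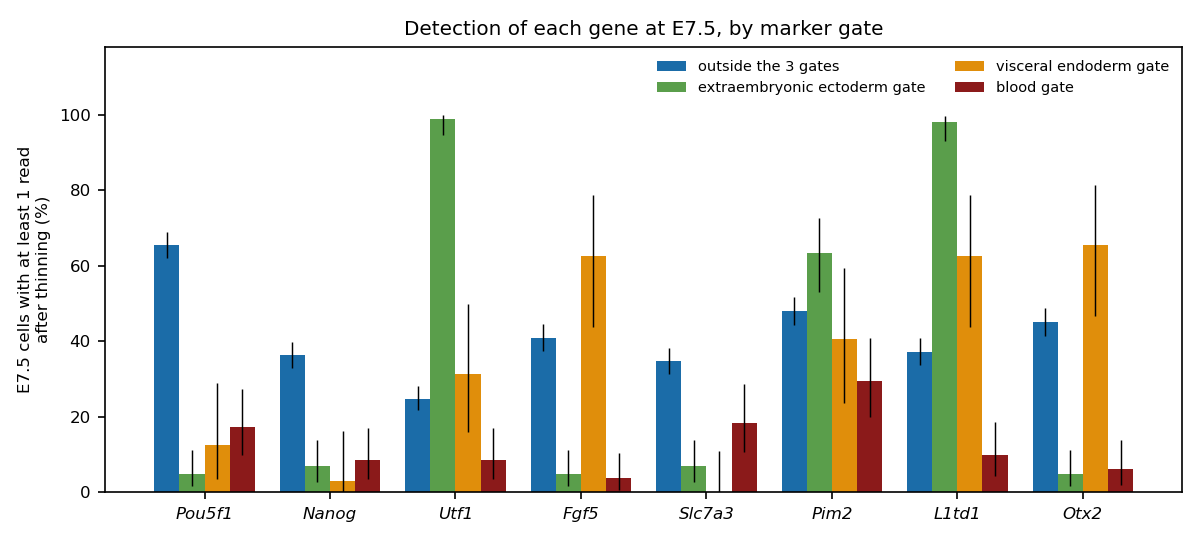
Share of E7.5 cells (%) in which each member was detected after thinning, for cells outside the gates and for cells of the extraembryonic ectoderm, visceral endoderm and blood gates, with 95% Clopper-Pearson intervals. Utf1 and L1td1 reach 99.01% and 98.02% in extraembryonic ectoderm cells, where Pou5f1 is at 4.95%.

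The next comparison set the members against T, Mixl1, Sox1 and Kdr among the E7.5 cells outside the gates. The cells were collected at 1 stage, so the order is one of levels between marker states and not a time course. None of T, Mixl1 and Kdr was detected in 15.6% of these cells, 12.8% (95 cells) had T without Mixl1, 18.3% had T and Mixl1 without Kdr, 21.4% had all 3, and 21.2% had Kdr without T and Mixl1. The cells with T without Mixl1 were not split by Kdr, which was detected in 49.5% of them. Across these states Pou5f1 was at 501.8, 315.7, 493.2, 182.7 and 9.25 CPM. Nanog was at 28.3, 34.2, 84.6, 20.03 and 0.323 CPM, and its highest state was that with T and Mixl1 and without Kdr. Utf1 was at 325.9, 87.3, 30.99, 2.08 and 2.67 CPM. With T and Mixl1 and without Kdr, pooled Utf1 was thus low while pooled Pou5f1 stood near its highest level and Nanog at its highest. The states differ in their plates as well. The embryos and chimera plate 3 gave 53.4%, 37.9%, 66.9%, 67.3% and 4.46% of their cells. Slc7a3 had a like order to Utf1, at 434.7, 160.3, 64.4, 7.42 and 9.30 CPM.

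The other 4 genes lay between. Pim2 was at 723.2, 302.3, 322.01, 58.8 and 30.1 CPM and L1td1 at 168.2, 78.6, 86.2, 14.8 and 1.79 CPM. Fgf5 was at 140.2, 55.96, 151.8, 53.5 and 1.66 CPM and Otx2 at 195.1, 62.4, 119.6, 70.7 and 6.53 CPM. The remaining 10.6% of cells (79) had Mixl1 without T, and Kdr was detected in 78.5% of them. They had 122.3 CPM of Pou5f1, 12.8 of Nanog, 41.9 of Utf1 and 75.2 of Slc7a3, so Utf1 was higher and Nanog lower there than in cells with T and Mixl1 and no Kdr. In the cells with Kdr alone all 8 were at or near their lowest, but only 4.46% of those cells came from the embryos and chimera plate 3, against 53.4% of the cells with none of the 3 markers, so the state and the kind of plate cannot be told apart for them.

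**Figure D3:**
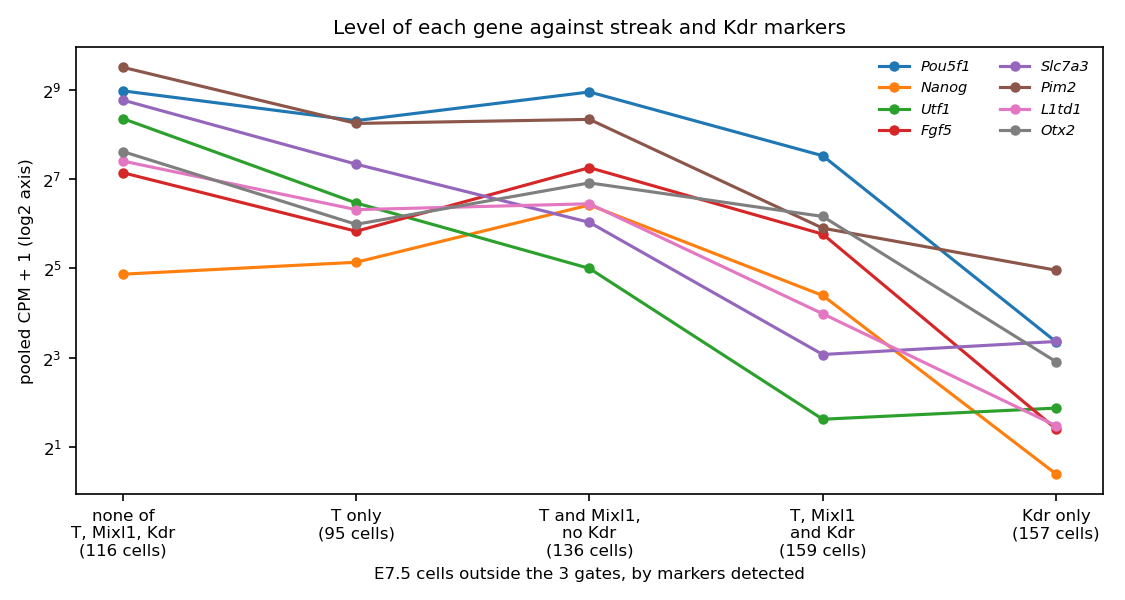
Pooled CPM + 1 (log2 axis) of each member in 5 groups of E7.5 cells outside the gates, ordered by the markers detected, 1 line per gene. From cells with none of T, Mixl1 and Kdr to cells with T and Mixl1 and no Kdr, Utf1 goes from 325.9 to 30.99 CPM and Nanog from 28.3 to 84.6 CPM.

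Between the cells with T and Mixl1, with or without Kdr, and those with none of the 3 markers, the log2 ratio was -4.50 for Utf1, -3.82 for Slc7a3, -2.15 for Pim2, -1.95 for L1td1, -1.11 for Otx2, -0.72 for Pou5f1, -0.60 for Fgf5 and 0.66 for Nanog. On the 6 plates with at least 5 cells of both kinds, Utf1, Slc7a3, Pim2 and Otx2 were lower on 6, L1td1 on 5, Pou5f1 and Fgf5 on 3 and Nanog on 2. Utf1 ranged from -7.02 to -2.53 over those plates and Nanog from -0.40 to 3.21, and these ranges did not overlap. Against all cells with neither T nor Mixl1, of which 57.5% had Kdr, 4 of the 8 were lower, and the order was the same, from Utf1 (-3.07) and Slc7a3 (-2.42) to Nanog (2.02).

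In shares of cells, Pou5f1 was detected in 70.7% of the cells with none of the 3 markers, 94.9% of those with T and Mixl1 and no Kdr, 86.8% of those with all 3 and 14.7% of those with Kdr alone. Nanog was detected in 41.4%, 70.6%, 39.6% and 5.10% of the same groups. Utf1 was detected in 65.5%, 32.4%, 6.29% and 4.46%. Of all cells with T, 86.4% had Pou5f1, 49.7% Nanog and 21.5% Utf1, and of cells with Kdr, 50.8% had Pou5f1 and 5.88% Utf1.

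Sox1 was detected in only 14 E7.5 cells outside the gates. In them Sox2, another neural and pluripotency factor, was detected in 85.7%. Slc7a3 was at 146.7 CPM, Pou5f1 at 93.2 CPM and Utf1 at 79.9 CPM, and Pou5f1 was detected in 28.6%. A few cells carried these levels, since Slc7a3 and Utf1 were each detected in 3 of the 14. Only 1 plate had at least 5 of these cells, and there Slc7a3 and Utf1 were at 0 and Pou5f1 at 1.29 CPM. Embryos 1, 2, 4 and 5 had 1, 2, 0 and 0, so no test against Sox1 was run.

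Each gene was then tested on its own within the 4 named embryos. Reads were summed over cells with and without T, or with and without Mixl1, in each embryo outside both extraembryonic gates. No test set the members against each other, so their order itself was not tested. Embryos 1, 2, 4 and 5 had 67, 62, 19 and 25 cells with T and 24, 31, 9 and 14 without, and 65, 62, 17 and 31 with Mixl1 and 26, 31, 11 and 8 without. Utf1 was at 24.7, 43.3, 3.92 and 25.4 CPM in the cells with T and at 207.9, 376.2, 157.4 and 56.01 CPM in those without, so it was lower in 4 of 4 embryos and the sides did not overlap. With Mixl1 it was at 19.4, 25.4, 17.6 and 20.2 CPM, and without at 221.6, 407.3, 124.8 and 104.9 CPM. Slc7a3 was at 88.2, 89.1, 15.9 and 70.4 CPM with T and at 366.1, 524.2, 242.7 and 90.99 CPM without, again lower in 4 of 4. Nanog was higher with T in 4 of 4, at 70.96, 56.6, 52.9 and 86.4 CPM against 21.1, 44.1, 46.4 and 3.25 CPM. With cells that had Kdr left out of the side without T, however, it was lower in 2 of 4 embryos (24.9, 58.5, 64.7 and 7.65 CPM without T), and with Mixl1 it was lower in 2 of 4 as well. Pou5f1 was at 345.5, 350.2, 260.5 and 360.8 CPM with T and 389.8, 654.5, 366.5 and 110.2 CPM without, so it went both ways.

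The edgeR quasi-likelihood test with embryo as a block called 0 of 14571 genes for T and 0 of 14751 for Mixl1 at limits of 1% FDR and 1 for the size of the log2 fold change (0% called in either direction, members included). Unadjusted p-values were under 0.05 for 1121 genes with T and 1482 with Mixl1. For T, the edgeR log2 fold change of Utf1 was -3.09 ± 0.64 (SE, adjusted p = 0.312), of Slc7a3 -2.22 ± 0.56 (0.418) and of Nanog 1.53 ± 0.76 (0.720). Pim2, L1td1 and Otx2 had -1.49 ± 0.74 (0.721), -1.12 ± 0.42 (0.621) and -0.38 ± 0.35 (0.892) for T. Each of these was lower in 3 of 4 embryos and higher in embryo 5 (log2 ratios 1.01, 0.49 and 1.01). For Mixl1, the edgeR value was -3.18 ± 0.31 for Utf1 (adjusted p = 0.0471), -2.61 ± 0.39 for Slc7a3 (0.126), -1.53 ± 0.36 for Pim2 (0.259), -1.36 ± 0.30 for L1td1 (0.244) and -0.56 ± 0.20 for Otx2 (0.415). Each was lower in 4 of 4 embryos, but Otx2 hardly differed in embryo 5, at 81.2 CPM with and 81.3 CPM without Mixl1. Pou5f1, Fgf5 and Nanog had -0.46 ± 0.32, 0.30 ± 0.43 and 0.84 ± 0.68, with edgeR adjusted p of at least 0.700.

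DESeq2 called 81 genes (0.578% of 14006) lower and 110 (0.785%) higher for T, and of 13893 genes it called 1.31% lower and 1.4% higher for Mixl1. The members among its calls were Utf1 for T (adjusted p = 0.00180) and Utf1 (1.37e-28), Slc7a3 (5.37e-15) and L1td1 (5.22e-05) for Mixl1, all lower. With cells that had Kdr left out of the side without Mixl1, edgeR also called Utf1 (-3.68, adjusted p = 0.00541), an alternative chosen after seeing the data. The call of Utf1 thus depended on the tool and the reference cells, while its direction did not. T and Mixl1 are often in the same cells, so these are not 2 independent tests.

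**Figure D4:**
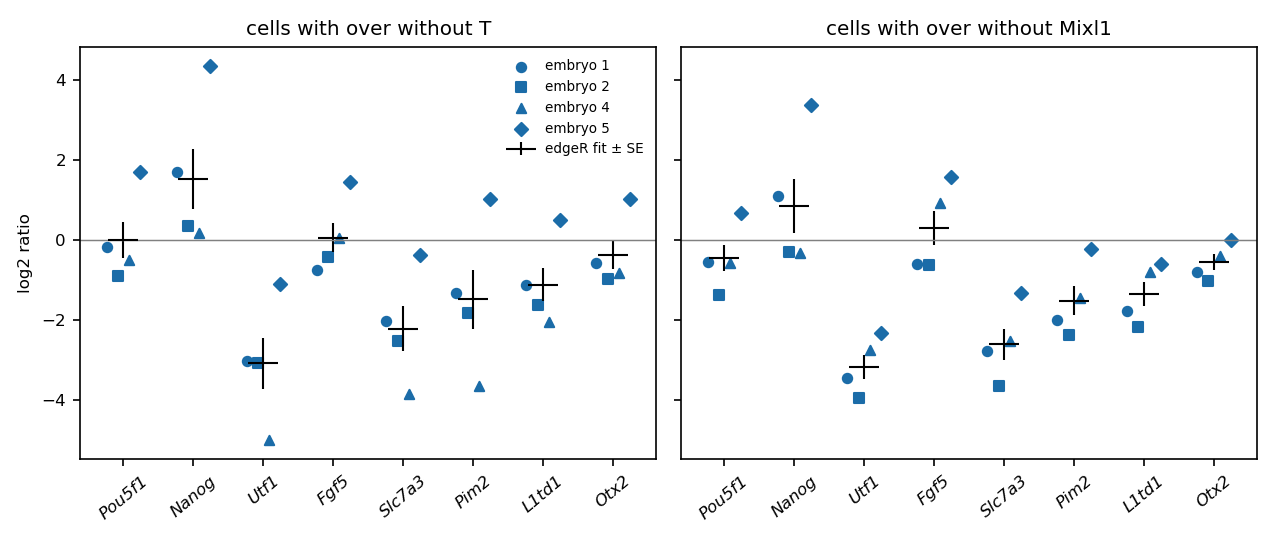
Log2 ratio of CPM in cells with over cells without T (left) or Mixl1 (right) for each member, 1 point per named embryo at E7.5, with a line at 0. Utf1 and Slc7a3 lie below 0 in 4 of 4 embryos in both panels and Nanog lies above 0 in 4 of 4 for T but in 2 of 4 for Mixl1.

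Of 16 other primed or shared pluripotency genes, 15 were tested in both comparisons and 0 were called by edgeR in either. Pou3f1, a POU factor of the primed epiblast, had log2 fold changes of -2.46 for T (edgeR adjusted p = 0.118) and -2.92 for Mixl1 (edgeR adjusted p = 0.0905), and Sox2 had -3.04 and -3.00. Tdgf1, the NODAL co-receptor, had 2.15 and 2.66. Between the stages, 12 of the 16 passed the level limit and 9 of the 12 had a log2 ratio at or below -1, led by Tdgf1 (-8.00) and Nodal (-3.97), and 0 at or above 1. Among 10 naive pluripotency genes 5 passed, of which 3 were at or below -1 (Dppa5a -4.12, Nr0b1 -3.52 and Tbx3 -2.08) and 1, Klf2, at or above 1. All 8 primitive streak genes were at or below -1 (these lists are read against the 8.21% above, with the limit given there).

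Within single E7.5 cells outside the gates, 21.6% had no member, 12.8% (95 cells) had all 8 and the median was 3. Of the cells with exactly 1 member, 55 had Pou5f1, 25 Pim2 and 14 Slc7a3. Cells with Utf1 nearly always had others, since 96.7% of them had Pou5f1, 95.1% Pim2, 89.1% Otx2, 88.6% L1td1 and 65.8% Nanog. The reverse did not hold, and 36.6% of cells with Pou5f1 had Utf1. Pou5f1 without Utf1 was seen in 41.6% of cells and Utf1 without Pou5f1 in 0.809%, or 6 cells. Fgf5 and Otx2 went together, with Otx2 in 87.8% of Fgf5 cells and Fgf5 in 79.7% of Otx2 cells. Pou5f1 was detected in more cells than Utf1 to begin with, so a nested pattern of this kind is read beside the levels above.

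Over all E7.5 cells, Pearson's r of log2(CPM + 1) was 0.80 between Fgf5 and Otx2, 0.79 between Utf1 and L1td1 and 0.19 between Utf1 and Nanog. Cells share plates, depth and cell type, and these values are descriptions. Among 13802 other genes, the one most like Pou5f1 was Vrtn (r = 0.737), most like Nanog Tdgf1 (0.610), most like Utf1 Pou3f1 (0.787), most like Fgf5 Zic2 (0.669), most like Slc7a3 Platr10 (0.722), most like Pim2 2900011O08Rik (0.675), most like L1td1 Cdh1 (0.759), which encodes E-cadherin, and most like Otx2 Zic2 (0.708). Over the 19 plates, the genes closest to the mean of the 8 members were Cer1 (r = 0.974), Pdzd4 (0.970), Grik3 (0.969), Nodal (0.962) and Pou3f1 (0.956), with plates sharing stage and sort.

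At E8.5, 69.7% of cells had none of the 8 genes, 24.96% had 1, 27 cells had 2, 8 had 3, 2 had 4 and 0 had 5 or more. The E8.5 plates 1 to 8 held 1, 2, 3, 2, 0, 0, 5 and 8 of the 21 cells with Pou5f1. In those 21 cells, T was detected in 8 (38.1%, against 6.10% of cells without Pou5f1), Cdx2 in 10 (47.6% against 17.7%), Nkx1-2 in 9 (42.9% against 5.95%) and Kdr in 5 (23.8% against 50.4%). T, Cdx2 and Nkx1-2 are genes of the caudal epiblast at the tail end of the embryo. Markers of the streak and of neural cells were more frequent there too. Mixl1 was detected in 6 of the 21 (28.6% against 4.17%), Sox2 in 4 (19.05% against 4.46%) and Sox1 in 3 (14.3% against 1.34%). Six3 and Hesx1 were in 0 of the 21, against 0.893% and 6.40%. All 8 cells with Pou5f1 and T had at least 3 of 7 caudal genes, a list that holds T itself. Of the other members, Slc7a3 was detected in 7 of the 21 (33.3% against 6.55% of cells without Pou5f1), Pim2 in 6 (28.6% against 15.8%), Nanog in 1 (4.76% against 0.446%) and Otx2 in 1 (4.76% against 3.27%). Fgf5 and L1td1 were in 0 of the 21, against 0.744% and 4.91%, and none of these differences was tested. The cells without Pou5f1 came from all 8 plates. Of all E8.5 cells, 24.8% were in the blood gate alone and 39.7% had at least 3 haematoendothelial genes and passed no gate. Plate and cell type thus cannot be told apart from the differences between cells with and without Pou5f1. Dppa3, a germ cell gene, was detected in 0 of the 21, against 0.595% of cells without Pou5f1. Prdm1, of the same list, was detected in 4 (19.05% against 11.5%), and at least 3 of 7 germ cell genes in 1.

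Of the 23 E8.5 cells with Otx2, 10 were on plate 7 and 9 on plate 8. Sox2 was detected in 6 (26.1% against 4.18% of cells without Otx2). T and Cdx2 were each detected in 1 (4.35%, against 7.16% and 19.1%). L1td1 was detected in 33 cells, of which 17 were on plate 1. Of the 8 genes of the visceral endoderm gate, Ttr was detected in 78.8% and Apoa1 in 75.8% of the 33. By that gate as a whole, L1td1 was detected in 58.6% of cells in it alone and 35.3% of those also in the blood gate. The extraembryonic ectoderm gate had 2 of 6 cells with L1td1. Among cells with at least 3 haematoendothelial genes and no gate, the share was 0.727%.

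**Figure D5:**
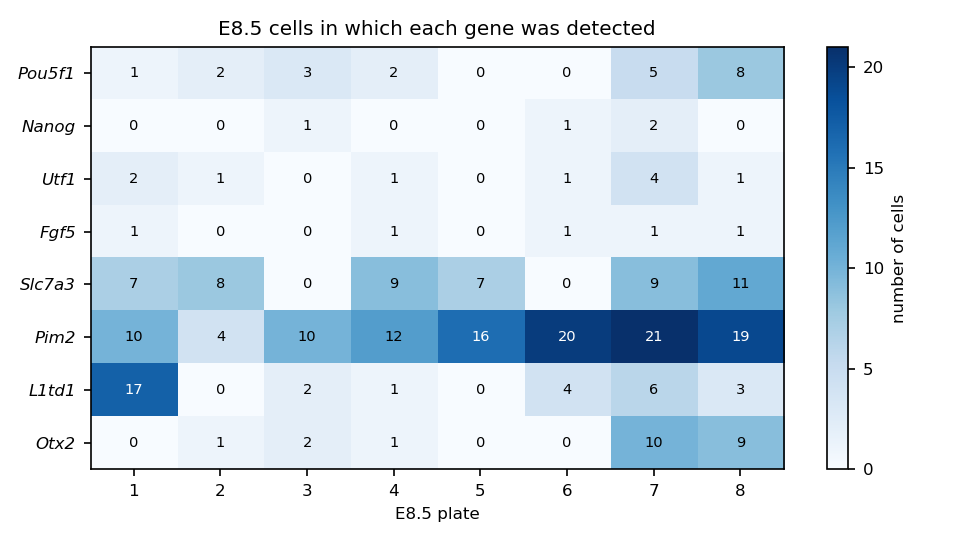
Number of E8.5 cells in which each member was detected after thinning, by plate. Pou5f1 cells are most frequent on plates 7 and 8 (5 and 8), Otx2 cells on the same plates (10 and 9), and L1td1 cells on plate 1 (17).

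Single cells carried much of the E8.5 level. Of all Nanog reads, 89.6% were in 1 cell on plate 7, at 218.7 CPM, which also had 58.5 CPM of Pou5f1, 77.6 of Slc7a3 and 7.63 of Pim2. Of all Fgf5 reads, 52.4% were in another cell of plate 7, at 83.1 CPM, with 46.9 CPM of Utf1, 12.5 of Pim2 and 57.6 of Elf5, a gene of extraembryonic ectoderm. The top cell of Pou5f1, on plate 8, held 39.5% of its 1252 reads, and no other member was detected in it. For Pim2 and Slc7a3 the top cell held only 6.98% and 6.26%. A cell on plate 2 had 159.1 CPM of Pou5f1, 8.32 of Utf1, 126.9 of Slc7a3 and 32.2 of Pim2 together with 373.4 of Cdx2 and 21.8 of T. A cell on plate 1 had 38.3 CPM of Utf1, 90.4 of Slc7a3, 29.04 of Pim2 and 38.9 of L1td1, 50.8 of the germ cell gene Dppa3 and 0 of Pou5f1. No doublet caller was run on these sorted single wells.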

How the data were processed

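RNA of single cells from Tet-TKO chimaera plates was measured by Smart-seq2. The deposited values are raw read counts per gene and cell. Per the submitters' processing notes, the authors used HISAT2 2.1.0 and featureCounts on GRCm38, with an Ensembl annotation per the study's methods. Settings for strand and for reads with several matches are not given in the sources used here. Column names matched 1 label each, with 0 left over.

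Cells with at least 100000 reads were kept, 956 of 1056 at E7.5 (median 735486 reads) and 693 of 768 at E8.5 (median 569386). At E7.5, 742 cells lay outside all gates, 101 in the extraembryonic ectoderm gate, and 116, 95, 136, 159 and 157 in the 5 marker states in the order given. At E8.5, 172 cells lay in the blood gate alone. Symbols and positions came from GENCODE M21, promoters from RefSeq. The members and all gene lists were chosen with earlier results of these data known. Named were the members, these lists and the genes most like the members by Pearson's r. Intervals are exact 95% intervals, and the limit for a count of 0 is 3 counts of the total. For the T and Mixl1 comparisons, counts were summed per embryo and side and tested with edgeR 4.0.16 (quasi-likelihood, TMM, filterByExpr, embryo as a block, Benjamini-Hochberg over all genes) under R 4.3.3, with DESeq2 1.42.0 as the alternative. The gate gene was left out of its own test. The test was checked on simulated data. Python 3.11.15, numpy 2.4.6 and pandas 2.3.3 were used for the rest, and Clopper-Pearson and Poisson intervals came from scipy 1.17.1. Identical columns were looked for and, apart from empty wells, none was found. Nothing in the labels says whether the plates of a stage came from separate litters. Alternatives covered depth and quality limits (the study's own were at least 4000 reads and at most 10% mitochondrial and 20% ribosomal reads), thinning, scaling, pseudocounts, filters, tools, plate subsets and leaving out each plate or embryo.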

Additional observations from a re-analysis of the deposited data

Results flagged for a closer look

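Of 64 groups of 4 to 10 plates or embryos checked for a value far from the others, 7 were flagged. The limit used flags about 1 in 20 groups by chance when values are normally distributed. Skewed plate levels near 0 need not follow that rate. All 7 flags were single E8.5 plates. Pou5f1 was at 11.4 CPM on plate 8, with the next plate at 3.77 CPM, and at 4.90 CPM without its top cell, which held 58.4% of the plate's Pou5f1 reads. Nanog was at 3.02 CPM on plate 7, with the next at 0.101 CPM, and 1 cell held 96.6% of the reads, without which it was at 0.103 CPM. On the same plate, Utf1 was at 2.14 CPM (next 0.675 CPM, and 0.822 CPM without its top cell) and Fgf5 at 2.43 CPM (next 0.783 CPM, and 0.0524 CPM without its top cell). Otx2 was at 29.7 CPM on plate 7, with the next at 12.2 CPM, and it stayed at 22.2 CPM without its top cell. L1td1 was at 25.6 CPM on plate 1 (next 5.93 CPM) and was detected in 18.5% of that plate's cells (next 6.82%). All 17 of those cells were in the visceral endoderm gate, and L1td1 was at 0.0433 CPM in the plate's other cells.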

How the results depend on the processing

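Over 74 results and 1113 comparisons with an alternative, 43 moved (a value beyond its spread, or a count or share by more than the limit set) and 8 gained a call of a member (0 members were called as reported, so no call could be lost). Among the log2 values 25 comparisons changed sign, 0 of them between the stages and all for values under 1 in size. For T, Pou5f1 (-0.0011) turned to 0.024 with a gate at 10 CPM, 0.016 with a gate at 2 reads, 0.038 without the filter and 0.67 with all cells of the embryos, and ran from -0.53 without embryo 5 to 0.34 without embryo 2. Fgf5 (0.05) turned to -0.21 both without the embryo block and with Kdr cells left out, and to -0.59 in embryos 1 and 2 alone, and ran from -0.39 without embryo 5 to 0.35 without embryo 1. For Mixl1, Pou5f1 (-0.46) turned to 0.47 with all cells of the embryos. Fgf5 (0.30) turned to -0.061 without the block, -0.037 with Kdr cells left out and -0.62 in embryos 1 and 2 alone, and ran from -0.13 without embryo 5 to 0.66 without embryo 2. Between cells with T and Mixl1 and cells with neither, Pou5f1 (0.69), Fgf5 (0.81) and Otx2 (0.26) were at -1.03, -0.70 and -1.14 in the named embryos alone and at -0.72, -0.60 and -1.11 against cells with none of the 3 markers. L1td1 (-0.53) was at 0.89 on lane plates alone and 0.07 without embryo 2, and Otx2 was at -0.0036 without lane plate 2. With at least 500000 reads, the number of cells kept was 1081. Counting any read without thinning, 12.5% of E7.5 cells outside the gates had no member, and leaving out 1 plate at a time gave 15.4% to 24.5%. Leaving out E8.5 plates gave 13 to 21 cells with Pou5f1, the lowest without plate 8. In the named embryos alone, or against cells with none of T, Mixl1 and Kdr (an alternative chosen after seeing the data), 7 members were lower in cells with T and Mixl1, against 4 as reported, and leaving out 1 plate gave 3 to 5. Utf1 and Slc7a3 stayed the lowest and Nanog the highest in every setting of that order.

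For T, DESeq2 called 0.578% of genes lower, 1 of them a member, and 0.785% higher, no filter on low counts gave 0.0115% higher, and leaving out 1 embryo gave 0 to 0.00710% higher, the latter without embryo 1. For Mixl1, genes lower and higher made up 0.0407% and 0.0610% at 5% FDR without a fold limit (1 member lower), 1.31% and 1.4% with DESeq2 (3 members), 0.0374% and 0.0805% without the filter (2 members), 0.0136% and 0.0475% without the embryo block (0 members), and 0.00697% and 0.0418% with cells that had Kdr left out of the side without Mixl1 (1 member). A gate at 10 CPM gave 0.00677% higher. The causes were not tested.

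The member median of the stage ratio ran from -2.67 (pseudocount 10 CPM) to -4.96 (0.1 CPM). Without E8.5 plate 1 the ratio of L1td1 was -4.18, without plate 7 that of Otx2 was -4.41, and without plate 8 that of Pou5f1 was -6.67. No paired analysis was possible because the stages share no animal, and plate numbers name no pairs.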
